A study of Mus musculus with 12 samples.

Results

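Small nucleolar RNAs (snoRNAs) and small Cajal body RNAs (scaRNAs) were followed in mouse bone marrow cells whose libraries carry the genotype label U2af1KO (KO here) or WT. The 84 RNAs described are all rows of both tables whose symbol starts with Snora, Snord or Scarna and whose mean normalized count reached 5 in at least 1 table. They come from 119 such rows among 24533 genes. Of the 84, 29 are box H/ACA RNAs (Snora), 49 are box C/D RNAs (Snord) and 6 are Cajal body RNAs (Scarna). Members were chosen by the mean normalized count, so levels are given as descriptions only. Just inside the limit stood Scarna8, whose higher mean was 5.4, and just outside it stood Snord1c at 4.67. Of the rows left out, 15 had a mean of 0 in both tables and 20 had a mean above 0. All 84 members had an adjusted p in both tables. A member with few counts can reach the limit through 1 genotype alone.

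RNA came from 12 libraries of C57BL/6 bone marrow in 4 groups of 3. Lineage-negative cells (LinNeg, labelled BM) and LSK cells (labelled BMT, which is not spelled out) each had WT and KO libraries. LSK usually names the part of lineage-negative marrow that carries Sca-1 and c-Kit, where blood stem cells are found. The labels give no age, sex, Cre driver or method of deletion, and leave unsaid whether replicates are different animals, so p-values cover no more than the differences among these libraries, which could be technical. The source used was the authors' deposited tables, which compare KO with WT within each population. No value of a single library was used, and depth per library is unknown.

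Most snoRNAs are cut from the introns of host genes after splicing and debranching, and are bound there by a set of core proteins. Box C/D RNAs carry a C box near the start and a D box near the end and guide ribose methylation. Box H/ACA RNAs fold into hairpins, end in ACA plus a short tail and guide the conversion of uridine to pseudouridine. The main target of both is ribosomal RNA. Cajal body RNAs do the same for the small nuclear RNAs of the spliceosome, U2 among them. U2af1 is the small subunit of the factor that recognises the end of the intron and helps to recruit the U2 particle.

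The RNA sequences are shown for members whose values the results turn on, to make the classes visible. They are from GENCODE M21 (mm10), RNA strand, written with T. In the first set capitals mark TGATGA (C box) and CTGA (D box), or the terminal ACA, and Scarna10 is given from base 1 to base 80 only.

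Snord17: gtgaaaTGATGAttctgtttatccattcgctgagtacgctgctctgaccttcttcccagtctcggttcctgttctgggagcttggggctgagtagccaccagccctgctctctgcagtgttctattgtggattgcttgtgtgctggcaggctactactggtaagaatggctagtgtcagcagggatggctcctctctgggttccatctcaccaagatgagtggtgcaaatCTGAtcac
Snord52: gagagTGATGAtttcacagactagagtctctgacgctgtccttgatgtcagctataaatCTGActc
Snord22: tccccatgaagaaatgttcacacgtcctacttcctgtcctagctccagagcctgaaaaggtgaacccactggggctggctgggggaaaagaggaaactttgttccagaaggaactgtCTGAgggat
Snora61: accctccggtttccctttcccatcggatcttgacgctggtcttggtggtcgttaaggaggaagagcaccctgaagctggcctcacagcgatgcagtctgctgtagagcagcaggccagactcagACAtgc
Snora5c: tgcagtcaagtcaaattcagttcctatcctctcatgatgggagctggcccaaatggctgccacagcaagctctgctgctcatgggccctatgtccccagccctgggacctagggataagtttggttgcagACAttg
Snora30: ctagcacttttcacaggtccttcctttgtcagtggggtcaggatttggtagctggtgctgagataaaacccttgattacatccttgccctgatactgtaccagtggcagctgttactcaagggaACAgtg
Scarna10: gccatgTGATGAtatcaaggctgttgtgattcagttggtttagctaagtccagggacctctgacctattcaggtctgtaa
Scarna13: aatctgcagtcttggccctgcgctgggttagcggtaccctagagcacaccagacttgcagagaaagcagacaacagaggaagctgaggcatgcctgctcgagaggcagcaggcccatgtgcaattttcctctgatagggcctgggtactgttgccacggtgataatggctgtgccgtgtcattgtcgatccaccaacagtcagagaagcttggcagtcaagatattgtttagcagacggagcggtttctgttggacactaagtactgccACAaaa

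The classes separated by these letters. On the RNA strand, TGATGA lay in the first 25 bases of 30 of 49 Snord members and of 0 of 27 Snora members, against 21.4% of all 1558 snoRNA and scaRNA transcripts in the annotation. CTGA lay in the last 25 bases of 48 of 49 Snord and 3 of 27 Snora members, against 56.5% of all those transcripts. ACA lay in the last 6 bases of 24 of 27 Snora and 4 of 49 Snord members, against 46.5%. Only these exact letters were searched, so Snord22, whose start differs, has no TGATGA there. The Snora members matched to a single locus had a median length of 132 bases (127 to 196) and the Snord members of 81 bases (65 to 238).

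Scarna2 and Scarna9 are known guides of U2, and both hold a stretch complementary to it. In the following set (Scarna2 from base 140 to base 210) capitals mark that stretch, the longest run of exact pairing with Rnu2-10, the annotated U2 RNA.

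Scarna2: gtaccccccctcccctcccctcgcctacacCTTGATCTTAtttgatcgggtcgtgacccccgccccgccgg
Scarna9: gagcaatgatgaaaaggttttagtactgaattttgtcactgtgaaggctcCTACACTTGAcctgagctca

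The run was 10 bases in each. It pairs with bases 22 to 31 of U2 (TAAGATCAAG) in Scarna2 and with bases 27 to 36 (TCAAGTGTAG) in Scarna9. A run of at least 10 bases with U2 was present in 16 of the 1558 transcripts, or 1.03%. Scarna6 had a run of 10 with Rnu5g, a U5 RNA, which 0.578% of transcripts shared. The longest run with U2 was 8 bases in Scarna8 and Scarna13 and 7 in Scarna10. Only unbroken runs were searched, so a shorter run does not show that an RNA is no guide of U2.

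Several features of the libraries moved with the genotype label, and their part in the results below was not tested. U2af1 itself was higher in KO, by 0.65 (standard error, SE, 0.19) in LinNeg and 0.61 (SE 0.06) in LSK on the log2 scale in the authors' deposited tables. A count over the whole gene does not check a deletion of part of it. In LSK the authors' deposited table gave the female transcript Xist a log2 fold change of 7.49 and 4 of 4 Y-linked genes between -9.21 and -8.95, so sex and genotype cannot be told apart there. In LinNeg it gave Xist 10.02 (SE 1.81, adjusted p = 2.73e-07), with derived means of 40 in WT and 41468 in KO. The 4 Y-linked genes were at -0.91 to -0.68 there, with SEs of 1.45 to 1.99, and none was called. By Xist, sex composition also moved with the label in LinNeg, and its part cannot be told apart from that of genotype. Of 8 neural markers, 6 rose in LinNeg and 8 in LSK, and their summed derived mean went from 10837 to 40482 and from 4818 to 8674. Mbp held 53.9% of their mean in LinNeg and 80.3% in LSK, so the sums mostly follow this gene. Their median log2 fold change was 1.80 in LinNeg (0.47 to 2.71) and 7.20 in LSK (0.38 to 10.89). Of 6 markers of LSK cells, all with counts in both tables, 1 rose (Ly6a) and 2 fell (Cd34 and Flt3) in LinNeg, while 0 rose and 5 fell in LSK (Ly6a, Kit, Cd34, Procr and Flt3). Of lineage-positive markers, the neutrophil gene Ly6g was near 0, with means of 0.78 and 1.62. Erythroid markers rose in 4 of 4 tested genes in each table, with Hbb-bt listed at 0. Neutrophil markers fell in 5 of 5 tested genes in LinNeg and rose in 6 of 6 in LSK. In such bulk samples, fewer cells of a type and less RNA per cell cannot be told apart.

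In LinNeg cells, 10 of the 84 RNAs rose in KO and 0 fell (authors' adjusted p under 0.05), against 22.1% of all tested genes called higher and 19.3% lower. The members that rose were 4 box H/ACA and 6 box C/D RNAs, and no Cajal body RNA passed. At an unadjusted p under 0.05 there were 17. Most members leaned the same way without passing: 72 of 84 had a log2 fold change above 0, with a median of 1.01, beside a median of 0.16 and 56.4% above 0 over all tested genes. Genes of similar level leaned up as well in this table. Among all tested genes with a mean of 20 to 200 the median was 0.66, 67.9% were above 0 and 34.9% were called, while 42 members in that range had a median of 0.93, 38 above 0 and 16.7% called. Of the members in that range 7 rose and 0 fell, and of all such genes 26.5% rose and 8.37% fell. With a change of at least 2-fold required as well, 9 of the 84 rose and 0 fell, beside 14% and 9.59% of all tested genes. The median SE of the 84 members was 0.97, against 0.28 over all tested genes.

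In LSK cells, 18 of the 84 rose and 5 fell, against 32.4% of all tested genes called higher and 29.2% lower. At an unadjusted p under 0.05 there were 25. The 18 were 6 box H/ACA, 10 box C/D and 2 Cajal body RNAs, and the 5 were 2, 1 and 2. The median was 0.41, beside 0.04 over all tested genes, and 64 of 84 were above 0 beside 52.0%. Here genes of similar level leaned the other way: those with a mean of 20 to 200 had a median of -0.39 and 38.2% above 0, while the 61 members in that range had a median of 0.48 and 51 above 0. Of these members 17 rose and 2 fell, and of all such genes 21% rose and 40.2% fell, of 61.2% called. With at least 2-fold required, 10 of the 84 rose and 0 fell, beside 9.75% and 12.9% of all tested genes.

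**Figure D1:**
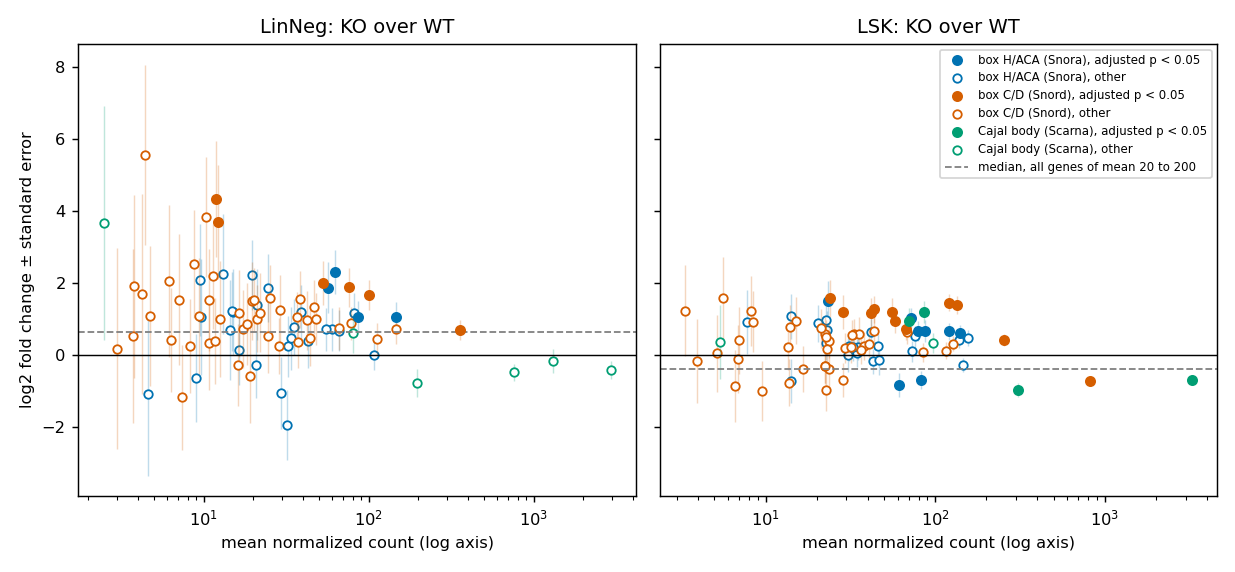
Log2 fold change (KO over WT) of each of the 84 RNAs with its SE (bars), against its mean normalized count on a log axis, in LinNeg (left) and LSK (right). Filled points have an adjusted p under 0.05, and the dashed line is the median of all tested genes with a mean of 20 to 200 (0.66 in LinNeg, -0.39 in LSK). Errors widen as the mean falls, and the members of highest mean lie below 0 in LSK.

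The Cajal body RNAs did not move as a block. Values per genotype are means derived from the deposited mean and fold change, taking 3 libraries on each side. Scarna2, a U2 methylation guide with its own promoter (chromosome 3, 108554338 to 108554751, minus strand), had the highest mean of all members. Its derived mean in LSK was 4044 in WT and 2501 in KO, a fall of 1.62-fold (log2 fold change -0.69, SE 0.10, adjusted p = 5.85e-12 in the authors' deposited table). Its derived means in LinNeg were 3339 and 2513, a log2 fold change of -0.41 (SE 0.25, adjusted p = 0.182 in the authors' deposited table), which did not pass. Scarna10, which joins both box types and is known to guide U5, lies in Ncapd2, the gene of a condensin subunit (chromosome 6, 125186359 to 125186683, minus strand), where it overlaps an annotated exon. It went from 406 to 210 in LSK, a fall of 1.94-fold (-0.95, SE 0.20, adjusted p = 3.04e-06 in the authors' deposited table). Its LinNeg value was -0.16 (SE 0.34, adjusted p = 0.742 in the authors' deposited table).

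Scarna13 and Scarna9 went up in LSK. Scarna13, an H/ACA RNA also known as U93, lies in an intron of the noncoding gene Snhg10 (chromosome 12, 105031075 to 105031349, minus strand). Its derived mean in LSK was 52.1 in WT and 120 in KO, a 2.30-fold rise (1.20, SE 0.31, adjusted p = 0.00027 in the authors' deposited table). Its derived means in LinNeg were 884 and 637 (-0.47, SE 0.24, adjusted p = 0.108 in the authors' deposited table). Scarna9, in an intron of the centriole gene Cep295 (chromosome 9, 15326264 to 15326333, minus strand), was at 47.7 and 92.7 in LSK, a 1.94-fold rise (0.96, SE 0.35, adjusted p = 0.0105 in the authors' deposited table). Its derived means in LinNeg were 249 and 146 (-0.77, SE 0.38, adjusted p = 0.0958 in the authors' deposited table). Both LinNeg values lay below 0 and missed the threshold. Scarna6 did not pass in either table (0.61, SE 0.53, and 0.35, SE 0.28, in the authors' deposited tables), and Scarna8 had means of only 2.48 and 5.4.

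The summed derived mean of the 6 Cajal body RNAs was 5910 in WT and 4628 in KO in LinNeg, and 4640 and 3038 in LSK. Scarna2 held 55.5% and 85.2% of these means, so the sums mostly follow 1 RNA. The U2 guides named above, Scarna2 and Scarna9, split in LSK, with Scarna2 lower and Scarna9 higher in KO.

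**Figure D2:**
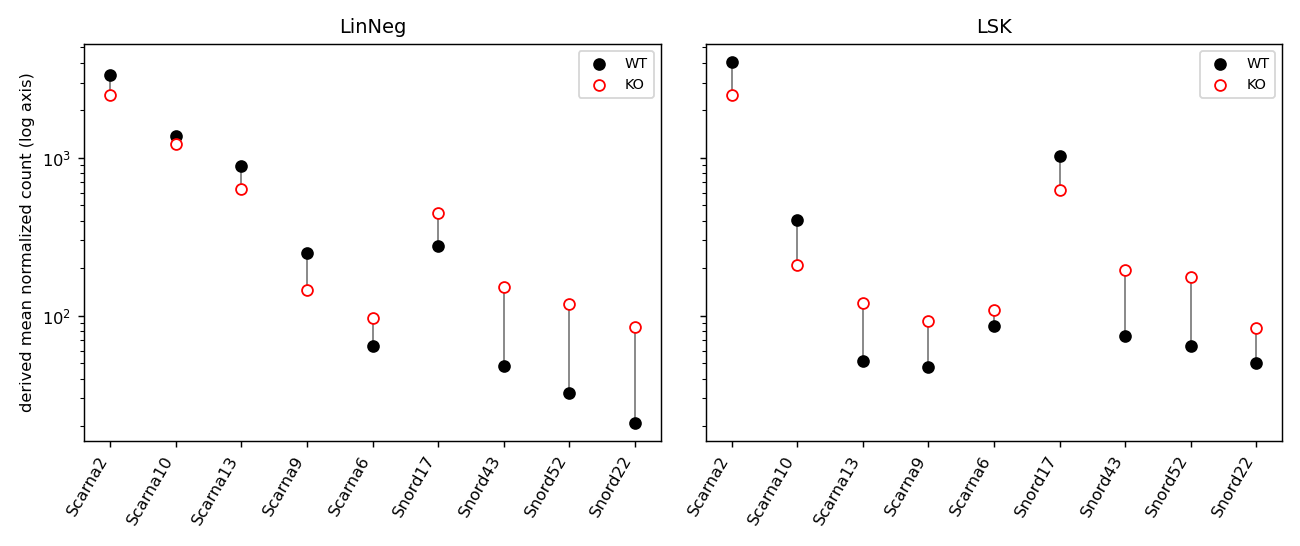
Derived mean normalized count (log axis) in WT (black) and KO (open red) libraries for 5 Cajal body RNAs and 4 box C/D RNAs, in LinNeg (left) and LSK (right). Points are means over 3 libraries derived from the authors' deposited tables, with no error drawn. Scarna2 and Scarna10 are lower in KO in both panels, Scarna13, Scarna9 and Snord17 change sides between the panels, and Snord43, Snord52 and Snord22 are higher in KO in both.

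Among the box H/ACA RNAs, Snora74a, Snora16a and Snora81 rose in both tables. Snora74a, also called U19 and given a role in rRNA processing, was at 21 in WT and 104 in KO in LinNeg, a 4.96-fold rise (2.31, SE 0.60, adjusted p = 0.000589 in the authors' deposited table). Its derived means in LSK were 47.2 and 97.5, a 2.06-fold rise (1.05, SE 0.28, adjusted p = 0.000372 in the authors' deposited table). Snora16a had 1.88 (SE 0.70) in LinNeg and 0.66 (SE 0.24) in LSK in the authors' deposited tables, with adjusted p of 0.0206 and 0.0101. Its symbol names 2 loci in the annotation, so no position or sequence is given. Snora81, in the gene of the translation initiation helicase Eif4a2, had 1.07 (SE 0.41, adjusted p = 0.0263) and 0.62 (SE 0.21, adjusted p = 0.00685) in the authors' deposited tables. A near-identical copy of it (at most 5% of bases apart) is annotated, so its reads could be shared.

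A further 3 box H/ACA RNAs rose in LSK alone by the threshold, although none of these differed between the populations by the test given further on. Snora61, in the noncoding host Snhg12, went from 12.1 to 34.5, a 2.84-fold rise (1.51, SE 0.54, adjusted p = 0.00939 in the authors' deposited table). Snora5c, in Tbrg4, was at 0.68 (SE 0.28, adjusted p = 0.0261) and Snora3, in the ribosomal protein gene Rpl27a, at 0.67 (SE 0.31, adjusted p = 0.0463) in the authors' deposited table. Snora5c has a near-identical copy. Snora17 rose in LinNeg (1.06, SE 0.44, adjusted p = 0.0418) and stood at 0.48 (SE 0.23, adjusted p = 0.0583) in LSK in the authors' deposited tables.

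A pair of box H/ACA RNAs fell in LSK. Snora47, in an intron of Zbed3, was at 78.7 in WT and 44.5 in KO, a fall of 1.77-fold (-0.82, SE 0.34, adjusted p = 0.0267 in the authors' deposited table). Its LinNeg value was -1.93 (SE 0.97, adjusted p = 0.0981 in the authors' deposited table). Snora30, in an intron of the chromatin remodeller gene Srcap, went from 101 to 63.6 (-0.67, SE 0.25, adjusted p = 0.0134 in the authors' deposited table) and has a near-identical copy. The H/ACA members of highest mean in both tables included Snora28 and Snora65, neither of which passed. Snora65 was at 1.18 (SE 0.55) and 0.44 (SE 0.22) in the authors' deposited tables. Snora28 was at 108 under both labels in LinNeg, and its LSK value was -0.27 (SE 0.19, adjusted p = 0.217 in the authors' deposited table).

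Among the box C/D RNAs, Snord43, Snord52 and Snord22 rose in both tables. Snord52, in the noncoding host 1110038B12Rik (chromosome 17, 34950952 to 34951017, minus strand), was at 32.5 in WT and 120 in KO in LinNeg, a 3.68-fold rise (1.88, SE 0.55, adjusted p = 0.00234 in the authors' deposited table). Its derived means in LSK were 64.2 and 176, a 2.75-fold rise (1.46, SE 0.23, adjusted p = 6.6e-10 in the authors' deposited table). Snord43, in an intron of the ribosomal protein gene Rpl3 (chromosome 15, 80082847 to 80082954, minus strand), was at 47.9 and 152 in LinNeg (1.67, SE 0.41, adjusted p = 0.000264 in the authors' deposited table). Its LSK means were 74.5 and 196, a 2.63-fold rise (1.40, SE 0.25, adjusted p = 1.12e-07 in the authors' deposited table). Snord22, or U22, is required for maturation of the RNA of the small ribosomal subunit and lies in Snhg1 (chromosome 19, 8725866 to 8725991, plus strand). It was at 21.1 and 84.6 in LinNeg, a 4.01-fold rise (2.0, SE 0.60, adjusted p = 0.00339 in the authors' deposited table), and at 50.4 and 83.5 in LSK (0.73, SE 0.30, adjusted p = 0.0252 in the authors' deposited table).

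Snord17 went in opposite directions. It is the longest box C/D member (238 bases, chromosome 2, 144265979 to 144266216, minus strand) and the one with the highest mean, in an intron of the sorting nexin gene Snx5. In LinNeg it was at 275 in WT and 445 in KO, a 1.62-fold rise (0.69, SE 0.27, adjusted p = 0.0289 in the authors' deposited table). Its derived means in LSK were 1022 and 622, a 1.64-fold fall (-0.72, SE 0.12, adjusted p = 2.05e-08 in the authors' deposited table). The LinNeg call is lost when that table is recentred on its median gene.

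A further 7 box C/D RNAs rose in LSK alone by the threshold, although none of these differed between the populations by the test given further on. The largest rise was in Snord12, in the noncoding host Zfas1, from 12.0 to 36.0 (1.58, SE 0.51, adjusted p = 0.0036 in the authors' deposited table). Snord99 in Snhg12 was at 1.28 (SE 0.37), Snord55 at 1.21 (SE 0.38) and Snord45b in Rabggtb at 1.19 (SE 0.48) in the authors' deposited table. Snord83b, a neighbour of Snord43 within Rpl3, was at 1.18 (SE 0.42), Snord49a at 0.94 (SE 0.32) and Snord96a at 0.43 (SE 0.17) in the authors' deposited table. The 7 adjusted p-values ran from 0.00125 to 0.0211. In LinNeg all 7 were above 0, from 0.39 for Snord99 to 1.53 for Snord12 in the authors' deposited table. Snord110 in Nop56 and Snord88a were called higher in LinNeg only, with derived WT means of 1.13 and 1.76 and KO means of 22.7 and 22.8, and are too low in WT for a measured ratio. Snord88a, Snord83b, Snord49a and Snord2 were named after their values were seen. Snord104 and Snord53, among the box C/D members of highest mean, did not pass in either table. Snord104 was at 0.45 (SE 0.43) in LinNeg and 0.32 (SE 0.21) in LSK, and Snord53 at 0.88 (SE 0.46) and 0.12 (SE 0.23), in the authors' deposited tables.

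The list used for RNAs with a role in cutting the ribosomal RNA precursor was short and may be incomplete. Of its 3 RNAs that reached the limit, Snord22 and Snora74a rose in both tables. Snord14a (U14) had means of 4.25 and 8.24 and did not pass. Snord118 (U8), Snord14c and Snord14d are listed with a mean of 0 in both tables. The row named for the precursor, Rn45s, stood at 0.39 (SE 0.23, adjusted p = 0.164) in LinNeg and -0.09 (SE 0.06, adjusted p = 0.23) in LSK in the authors' deposited tables, after depletion of ribosomal RNA. It still held 13.3% and 19.3% of the summed mean of all genes. Precursor and mature ribosomal RNA left by the depletion cannot be told apart in it. Of the snoRNAs in Rpl13a, known for a part in lipid-induced cell death, Snord32a alone reached the limit and did not pass, at 1.09 (SE 1.94) and 0.93 (SE 0.84) in the authors' deposited tables. None of the 4 rows from imprinted snoRNA clusters reached the limit.

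Box H/ACA and box C/D RNAs were close to each other in both populations. In LinNeg the median log2 fold change was 0.78 for Snora (lower to upper quartile 0.25 to 1.22) and 1.05 for Snord (0.53 to 1.59). In LSK it was 0.44 for Snora (0.06 to 0.67) and 0.41 for Snord (0.06 to 0.93). The share called was 13.8% of Snora and 12.2% of Snord in LinNeg, against 41.4% of all tested genes, and 27.6% and 22.4% in LSK, against 61.6%. With a mean of at least 20 the LinNeg medians were 0.72 for 19 Snora and 1.01 for 22 Snord members, and the LSK medians 0.39 for 26 and 0.47 for 34. RNAs of a class share libraries and in part hosts, so the difference between the classes was given no test. Summed over each class, the derived mean in LinNeg went from 854 to 1466 for Snora and from 1179 to 2287 for Snord. In LSK it went from 1535 to 1913 and from 2583 to 2895, where Snord17 held 30.0% of the Snord mean.

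**Figure D3:**
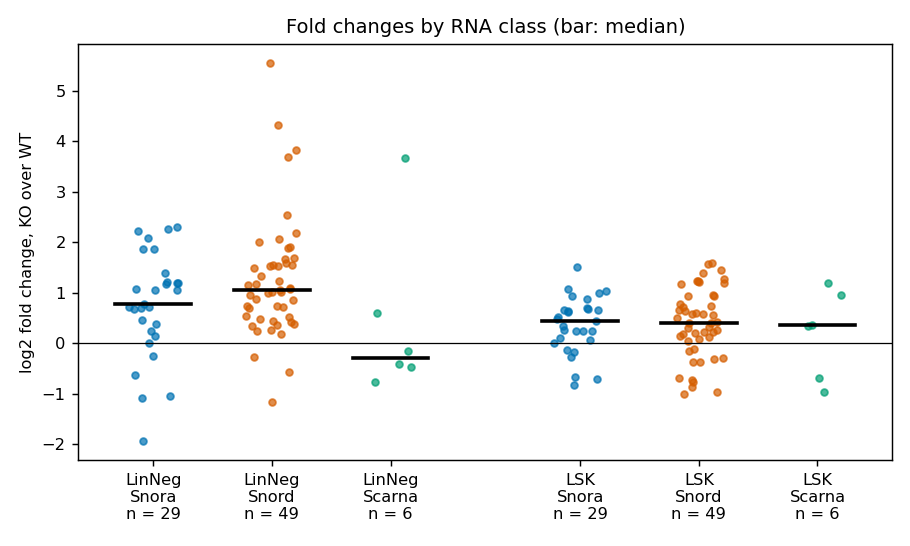
Log2 fold change (KO over WT) of every member by class and population, one point per RNA with sideways scatter for visibility, and the class median as a bar. Snora and Snord overlap in each population (medians 0.78 and 1.05 in LinNeg, 0.44 and 0.41 in LSK), and the LinNeg points spread more widely.

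The difference between populations was tested per RNA as the LSK minus the LinNeg log2 fold change, divided by its SE, the 2 tables being independent in libraries (normal test, two-sided, Benjamini-Hochberg over 15735 genes). It passed for 3 of 84 members, beside 31.9% of all genes tested. Scarna13 differed by 1.68 (SE 0.40, adjusted p = 0.000175) and Scarna9 by 1.73 (SE 0.52, adjusted p = 0.00408), both higher in LSK. Snord17 differed by -1.41 (SE 0.30, adjusted p = 2.17e-05). At an unadjusted p under 0.05 there were 7. The next in size of the quotient were Snord110 (-3.73, SE 1.68, adjusted p = 0.0748), Scarna10 (-0.80, SE 0.39, adjusted p = 0.107) and Snora23 (-2.04, SE 1.01, adjusted p = 0.111), which did not pass. On the positive side the next were Snora47 (1.11, SE 1.03) and Snora2b (1.10, SE 1.07). The difference was below 0 for 22 of 29 Snora, 40 of 49 Snord and 4 of 6 Scarna members. Of the 84, 6 were called higher in both tables, beside 14.1% of genes tested in both, and 1 (Snord17) was called in opposite directions, beside 6.15%.

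**Figure D4:**
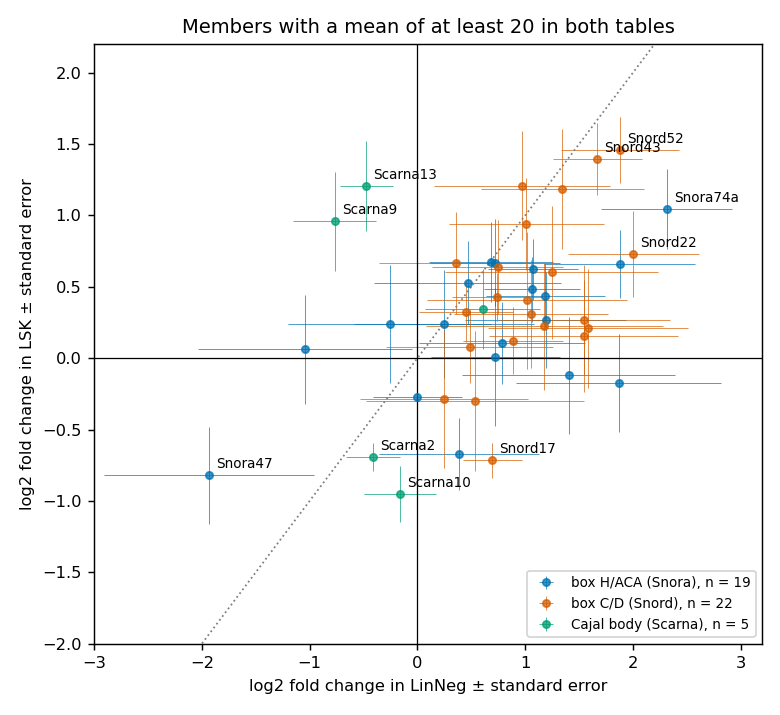
Log2 fold change in LSK against that in LinNeg for the 46 members whose mean reached 20 in LinNeg and in LSK, with SEs as bars and the line of equality dotted. Scarna13 and Scarna9 lie at upper left, Snord17 at lower right, and Snord52, Snord43, Snord22 and Snora74a at upper right.

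Hosts were taken from the annotation as the gene on the same strand that contains the RNA. Of 82 members with a single annotated locus, 79 had one, and 39 of these overlap an annotated exon of the host by at least 1 base. A row counts reads over the RNA's position, so the mature RNA and unspliced host cannot be told apart. For members that overlap a host exon, spliced host RNA cannot be told apart either. Among the box H/ACA and Cajal body RNAs called in LSK, these are Snora74a, Snora81, Snora61, Snora5c and Snora3, called higher, and Scarna10, called lower. Box C/D RNAs called higher are among them too, in LinNeg and in LSK, and these include Snord22, Snord52 or both. Without such members LSK had 7 rises and 4 falls, and LinNeg 5 rises and 0 falls. In LinNeg 28 of the 64 hosts in the tables rose and 2 fell (median 0.34), and in LSK 51 rose and 5 fell (median 0.46), beside the shares of all genes given above. Over the 58 members whose mean reached 20 and whose host is in the LSK table, Spearman's rho between the fold changes of RNA and host was 0.52 and 50 had the same sign. In LinNeg it was 0.38 over 40 members, with 27 of the same sign. These points share libraries, and 2 or 3 RNAs can share a host.

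Some RNAs moved with their host and others did not. Snord52 (1.46 in LSK) stood beside its host 1110038B12Rik at 1.28 (SE 0.08), and Snora47 (-0.82) beside Zbed3 at -0.88 (SE 0.09), in the authors' deposited table. Snord22 (0.73) stood beside Snhg1 at 0.84 (SE 0.07) in the same authors' deposited table. Snord17 fell in LSK by 0.72 while Snx5 rose by 0.47 (SE 0.05, adjusted p = 4.32e-17) in the authors' deposited table. Scarna10 fell there by 0.95 beside Ncapd2 at 0.03 (SE 0.05, adjusted p = 0.554) in the authors' deposited table. Snora81 and Snord2 share Eif4a2, which was at -0.05 (SE 0.05) in LSK, while they were at 0.62 and 0.66 (the latter with a SE of 0.36 and not called) in the authors' deposited table. Snord43 and Snord83b share Rpl3, which rose by 0.29 (SE 0.06) against 1.40 and 1.18 in the authors' deposited LSK table. In LinNeg, Scarna9 and Scarna13 stood at -0.77 and -0.47 beside Cep295 at 0.34 (SE 0.15) and Snhg10 at 0.72 (SE 0.65) in the authors' deposited table, none of which passed. An RNA and its host share libraries and possibly reads, so these gaps were given no test.

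**Figure D5:**
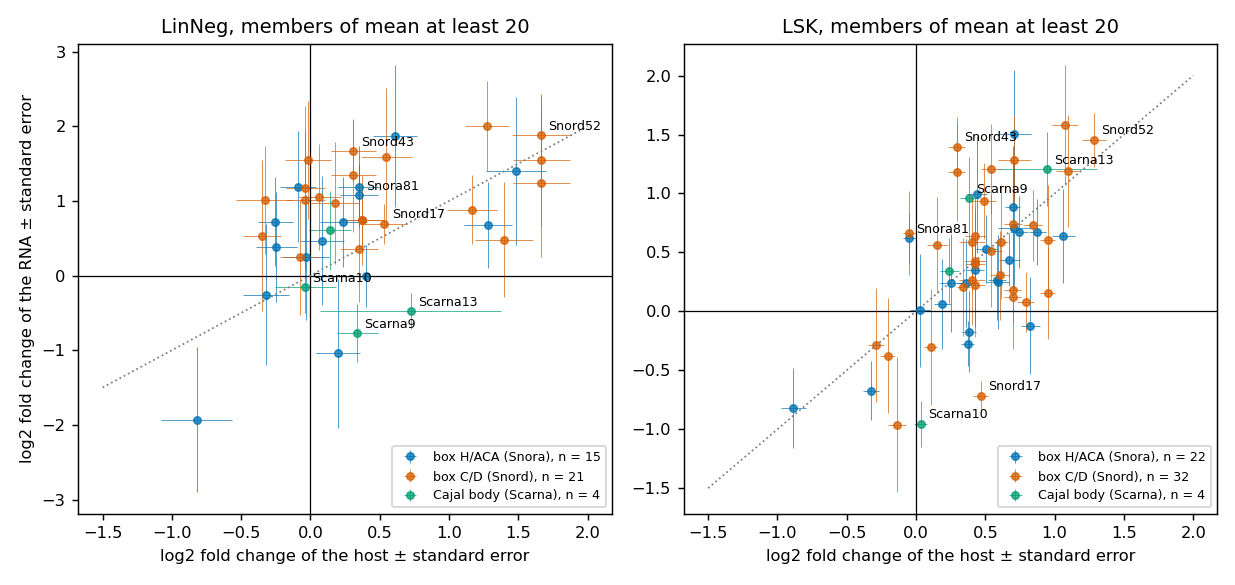
Log2 fold change of each RNA against that of its host gene, for members with a mean of at least 20, in LinNeg (left, 40 members) and LSK (right, 58), with SEs as bars and the line of equality dotted. Snord17 and Scarna10 lie well below the line in LSK, Snord43 and Snora81 above it, and Snord52 close to it.

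By kind of host, the 16 members in noncoding hosts had a median of 0.99 in LSK, with 8 higher and 0 lower, beside 32.4% and 29.2% of all tested genes. The 63 in protein-coding hosts had a median of 0.35, with 9 higher and 4 lower. In LinNeg the medians were 1.71 and 0.89, with 3 and 5 higher and 0 lower in each, beside 22.1% and 19.3% of all tested genes. The difference between the kinds of host was not tested.

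Genes of the proteins that bind, assemble and trim these RNAs were counted against all tested genes of a mean of at least 20. Of those, 25% rose and 23.2% fell in LinNeg, and 38.2% rose and 36.3% fell in LSK. All 4 box H/ACA core protein genes (Dkc1, Nop10, Nhp2 and Gar1) rose in both tables, with medians of 1.19 in LinNeg and 0.86 in LSK. So did all 4 box C/D core protein genes (Nop56, Nop58, Fbl and Nhp2l1), with medians of 1.09 and 0.79. Dkc1, the pseudouridine synthase, was at 1.08 (SE 0.21) and 0.62 (SE 0.06) in the authors' deposited tables. Fbl, the methyltransferase, was at 0.79 in both (SEs 0.21 and 0.07). H/ACA assembly genes rose in 5 of 5 in both tables, led by Nolc1 at 1.82 and 1.16 in the authors' deposited tables. C/D assembly genes rose in 5 and 6 of 7, with the R2TP subunit Pih1d1 lower in both (-0.52 and -0.31 in the authors' deposited tables). The lists overlap: Ruvbl1 and Ruvbl2 are counted in both assembly lists, and Nolc1 again among the Cajal body genes below.

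Of 10 genes of Cajal body, cap and SMN proteins, 6 rose in LinNeg and 7 in LSK, and 0 fell. The Cajal body scaffold Coil did not pass (0.16, SE 0.24, and 0.15, SE 0.10), while Wrap53, which carries scaRNAs to Cajal bodies, rose by 0.73 and 0.55 in the authors' deposited tables. Of 20 debranching, exonuclease and trimming genes 11 rose in LinNeg and 18 in LSK, and 0 fell. Of all tested genes of a mean of at least 20, the same 25% and 38.2% rose, and 23.2% and 36.3% fell. Dbr1, which opens the intron lariat, was at 0.26 (SE 0.24, adjusted p = 0.416) and 0.57 (SE 0.08, adjusted p = 4.69e-11) in the authors' deposited tables. All 15 partners in rRNA modification and processing rose in both, such as Nat10 at 1.73 and 0.79 in the authors' deposited tables. Telomerase RNA, Terc, a box H/ACA RNA outside the rule and looked up afterwards, stood at -0.07 (SE 0.30, adjusted p = 0.886) and rose by 0.53 (SE 0.13, adjusted p = 5.62e-05) in LSK in the authors' deposited tables. Also looked up afterwards were the RNA subunits of the RNA-cutting enzymes RNase MRP and RNase P, which are not box H/ACA or box C/D RNAs and rose in both tables. Rmrp rose by 0.54 (SE 0.22, adjusted p = 0.034) in LinNeg and 1.16 (SE 0.33, adjusted p = 0.000796) in LSK, and Rpph1 by 0.55 (SE 0.20, adjusted p = 0.018) and 0.81 (SE 0.19, adjusted p = 6.74e-05), in the authors' deposited tables.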

How the data were processed

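RNA was sequenced from 12 libraries, from flow-sorted, lineage-depleted marrow after ribosomal RNA depletion with a NEBNext Ultra II kit, per the labels' protocols. Whether the size selection kept RNAs this short is not given in the sources used here. The submitters' processing notes name build mm10, DESeq2, StringTie, HISAT2 and SAMtools 1.10; the counting program is not given in the sources used here. Per the file headers, the authors deposited the mean normalized count (a signal), log2 fold change, its standard error, the Wald statistic (a score), the p-value and the adjusted p-value. A call is the authors' DESeq2 adjusted p under 0.05. Because the deposited log2 values are rounded, each was rebuilt from its statistic and standard error. Each table had 24542 rows; 5 that name no gene and 4 with repeated symbols were left out, and reads without a feature made up 38.0% and 26.4% of the totals. Normalization was separate in each table, and no level is set against the other table. Members and lists were chosen with earlier results of these data known. The members named were all Scarna; per class and table the 6 largest rises and falls among calls with a mean of at least 20 and the 5 highest means; and the 4 largest differences of each sign. Positions, hosts and sequences are from GENCODE M21; 82 of 84 symbols named a single gene. Scripts ran in Python 3.11.15 with scipy 1.17.1, numpy 2.4.6, matplotlib 3.10.9 and pandas 2.3.3.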

Additional observations from a re-analysis of the deposited data

Results flagged for a closer look

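The effect of the KO label differed between LSK and LinNeg for 3 members by the test of the difference (Benjamini-Hochberg over all genes tested). The LSK minus LinNeg difference of log2 fold changes was 1.68 for Scarna13, 1.73 for Scarna9 and -1.41 for Snord17. The populations also differ in the label BMT and in the fold changes of Y-linked genes given above, while Xist was higher in KO in both. The part of any of these in the differences was not tested.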

How the results depend on the processing

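No paired analysis was possible because the tables hold the authors' comparisons with no values per library, and leaving out replicates in turn was not run for the same reason. Counts over all members moved as follows. With adjusted p under 0.01 the LinNeg rises were 4 and the LSK rises and falls 11 and 3. With at least 2-fold required, LSK had 10 rises and 0 falls. Recentred on the median of all tested genes (0.16 in LinNeg, 0.04 in LSK), LinNeg had 6 rises, losing Snora17, Snora81, Snord17 and Snord88a, and 2 falls, gaining Scarna13 and Scarna9, while LSK lost Snora3. Leaving out members that overlap a host exon, an alternative chosen after seeing the data, gave 5 LinNeg and 7 LSK rises, and LSK medians of 0.24 for Snora and 0.31 for Snord. With no minimum mean, the LSK median was 0.51 for Snord and turned to -0.63 for Scarna, by the construction of a larger list. Adjustment over every gene with a p ended the calls of Snord88a in LinNeg and Snora3 in LSK. The 3 differences between populations passed under each alternative run. Errors, which follow the mean count, limit what can be called for members with a mean under 20, and depth per library is unknown.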
